A study of Mus musculus with 19 samples.

Results

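The chemokine ligand and chemokine receptor genes of the mouse were followed through sorted bone marrow progenitors that carried or lacked Dnmt3a and the PR+/- allele. Members were taken by symbol: Ccl, Cxcl, Ccr or Cxcr with a number and an optional letter, together with Cx3cl1, Cx3cr1, Xcl1 and Ackr1 to Ackr4, while Pf4 and Xcr1 were left out. They numbered 52 of the 15781 genes measured, namely 33 ligands, 15 receptors and 4 atypical receptors, which bind ligands without the usual signalling. The 6 groups were PR+/- Dnmt3a-/- GMP (4 arrays), PR+/- GMP (2), Dnmt3a-/- GMP (3), wild-type GMP (4), Dnmt3a-/- CMP (3) and wild-type CMP (3). CMP are common myeloid progenitors and GMP granulocyte-monocyte progenitors, which arise from them. The series title speaks of PML-RARA, the fusion of acute promyelocytic leukaemia, and PR is taken to mean it. Dnmt3a encodes a DNA methyltransferase that places new methyl groups on CpG dinucleotides. All groups came from whole bone marrow. The strain C57Bl/6J is given for the wild-type and Dnmt3a-/- groups without the fusion, and not for those that carry it, whose cell type stands in their titles alone. How the fusion is driven, how Dnmt3a was deleted, the age of the mice, pooling and whether arrays of 1 group came from separate animals are not given in the sources used here. The p-values therefore measure the spread between these samples, which may be technical.

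Chemokines are small secreted proteins that bind G protein-coupled receptors and steer the movement of blood cells along gradients. In the bone marrow, Cxcl12 from stromal cells holds Cxcr4-bearing stem and progenitor cells in place, whereas Cxcr2 and Ccr2 serve the exit of neutrophils and monocytes into blood. Myeloid cells also make chemokines themselves, among them Ccl3, Ccl4, Ccl6 and Ccl9.

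The stretches of 250 bases that precede the transcription start of 5 of these genes are shown because the results below turn on these genes and because CpG, the substrate of Dnmt3a, was unevenly spread among them. The sequences are from RefSeq, build GRCm38.p6, all from the minus strand, written 5′ to 3′ with each CpG in capitals. Ccr1, Ccl6 and Cxcl9 passed a test between genotypes, of which Cxcl9 is a ligand near background. Cxcr4 passed a test between cell types in the absence of Dnmt3a, and Ccl3 stands for a ligand that varied from array to array. The windows lie at chr9:123968693-123968942 for Ccr1, chr1:128592300-128592549 for Cxcr4, chr11:83593088-83593337 for Ccl6, chr5:92328080-92328329 for Cxcl9 and chr11:83649379-83649628 for Ccl3.
Ccr1: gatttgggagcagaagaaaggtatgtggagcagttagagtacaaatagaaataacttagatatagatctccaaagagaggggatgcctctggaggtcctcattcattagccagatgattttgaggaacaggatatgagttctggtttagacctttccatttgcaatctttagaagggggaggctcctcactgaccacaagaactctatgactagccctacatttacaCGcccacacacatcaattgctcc
Cxcr4: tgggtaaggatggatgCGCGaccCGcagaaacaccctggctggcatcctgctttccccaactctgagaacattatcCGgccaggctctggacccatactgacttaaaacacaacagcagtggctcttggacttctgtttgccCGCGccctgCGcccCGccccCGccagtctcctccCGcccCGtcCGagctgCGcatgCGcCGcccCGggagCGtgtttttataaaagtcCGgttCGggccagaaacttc
Ccl6: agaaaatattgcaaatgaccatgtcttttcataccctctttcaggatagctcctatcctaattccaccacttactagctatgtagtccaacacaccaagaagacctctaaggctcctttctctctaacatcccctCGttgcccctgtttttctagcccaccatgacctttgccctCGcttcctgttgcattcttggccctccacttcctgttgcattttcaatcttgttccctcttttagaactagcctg
Cxcl9: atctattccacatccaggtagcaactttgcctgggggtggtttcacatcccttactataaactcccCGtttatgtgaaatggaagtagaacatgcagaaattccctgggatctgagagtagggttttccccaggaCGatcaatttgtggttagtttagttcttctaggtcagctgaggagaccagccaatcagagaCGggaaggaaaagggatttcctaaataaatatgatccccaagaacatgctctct
Ccl3: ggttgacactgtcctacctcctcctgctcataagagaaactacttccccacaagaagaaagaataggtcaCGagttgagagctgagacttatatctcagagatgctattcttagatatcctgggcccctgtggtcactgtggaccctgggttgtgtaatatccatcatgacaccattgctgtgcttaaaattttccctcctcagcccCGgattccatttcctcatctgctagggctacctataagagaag
The Cxcr4 window held 19 CpG, the Cxcl9 window 3, the Ccl6 and Ccl3 windows 2 each and the Ccr1 window 1. Of the members, 38 had a window in the table, 40 windows in all, with a median of 3 CpG against 6 over all 32817 windows. Fewer than 5 CpG stood in 65.0% of the member windows and in 44.4% of all windows. These are counts of letters, and methylation was not measured on these arrays. Of the motifs searched on both strands, a loose form of the NF-kB site, GGG and CC parted by 5 bases of any kind, occurred in 55.0% of member windows and 45.8% of all windows, the Ccr1 and Cxcl9 windows among them. TGANTCA, the AP-1 site, occurred in 10% of member windows and 6.75% of all, and TTCNNNGAA, the site of STAT factors, in 7.5% and 7.01%; neither was in the 5 windows shown.

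Levels are given as log2 of the deposited intensity, averaged over the probe sets that carry a gene's symbol alone. The members had 237 such probe sets, with a median of 4 and a range of 1 to 11 per gene, and none was shared with another symbol. Related genes may still bind each other's probes, which was not tested. A level of 4.81 was used as the floor of detection: the 90th percentile of the mean levels of 43 genes not used in blood cells, whose median was 3.88. Brightness depends on the probes, so levels are compared between groups for 1 gene and not between genes. These are bulk samples, in which fewer cells of a type and less RNA per cell cannot be told apart.

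Beside the members, some properties of the arrays moved with the groups. Dnmt3a averaged 6.09 ± 0.20 in PR+/- Dnmt3a-/- GMP, 7.13 ± 0.09 in PR+/- GMP, 6.13 ± 0.08 in Dnmt3a-/- GMP, 7.44 ± 0.12 in wild-type GMP, 6.42 ± 0.06 in Dnmt3a-/- CMP and 7.46 ± 0.21 in wild-type CMP (SD). A list of progenitor sort markers (10 of 11 measured, 9 above the floor) averaged 7.48 to 7.93 on all 19 arrays. Lists for T and NK cells (8 of 11 measured) and for marrow stroma and endothelium (11 of 12) averaged 4.34 to 4.92 and 4.01 to 4.69. A list of immediate early and heat shock genes (17 of 19 measured), whose RNA changes quickly when cells are handled, averaged 7.69 to 8.91 on 5 arrays (PR+/- Dnmt3a-/- GMP 1 and 2, wild-type GMP 1 and 2, wild-type CMP 1) and 6.05 to 7.22 on the other 14. The level of 2 Y-linked genes was 2.54 to 3.25 on 9 arrays and 6.73 to 7.25 on the remaining 10. The 9 were all 6 Dnmt3a-/- arrays without the fusion, PR+/- Dnmt3a-/- GMP 2, wild-type GMP 4 and wild-type CMP 3. Without the fusion this level thus largely followed Dnmt3a genotype, and as a covariate it can hardly be separated from it. The arrays with PR+/- carry another style of label than the rest, and the labels do not say why. Any difference that goes with the label style cannot be told apart from the effect of the fusion. Without the fusion, the title numbers run from 21986 to 22012 in wild type and from 22298 to 22303 in Dnmt3a-/-. The labels do not say what these numbers mark. Any difference that goes with them cannot be told apart from Dnmt3a genotype.

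Of the 52 members, 26 had a group mean above the floor in at least 1 of the 6 groups. They comprised 16 ligands and 10 receptors. Of the 43 genes not used in blood cells, 7 were likewise above the floor in at least 1 group. Above the floor in all 6 groups were 10 members: the receptors Cxcr4, Ccr2, Cxcr2 and Cx3cr1 and the ligands Ccl3, Ccl4, Ccl6, Ccl9, Ccl11 and Ccl28. The other 26 (17 ligands, 5 receptors and all 4 atypical receptors) were under the floor in every group, with means over all arrays from 2.34 to 4.57. The floor was set against the mean over a gene's probe sets: 9 of these 26 had a probe set above it on every array, and whether such a probe set reads the gene's own RNA was not tested. For Ccl19, Ccl21a, Ccl21b, Ccl21c, Ccl21d, Ccl27a, Ccl27b and Ccr8 of the reference table no probe set of their own was used, and they were not analysed here.

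**Figure D1:**
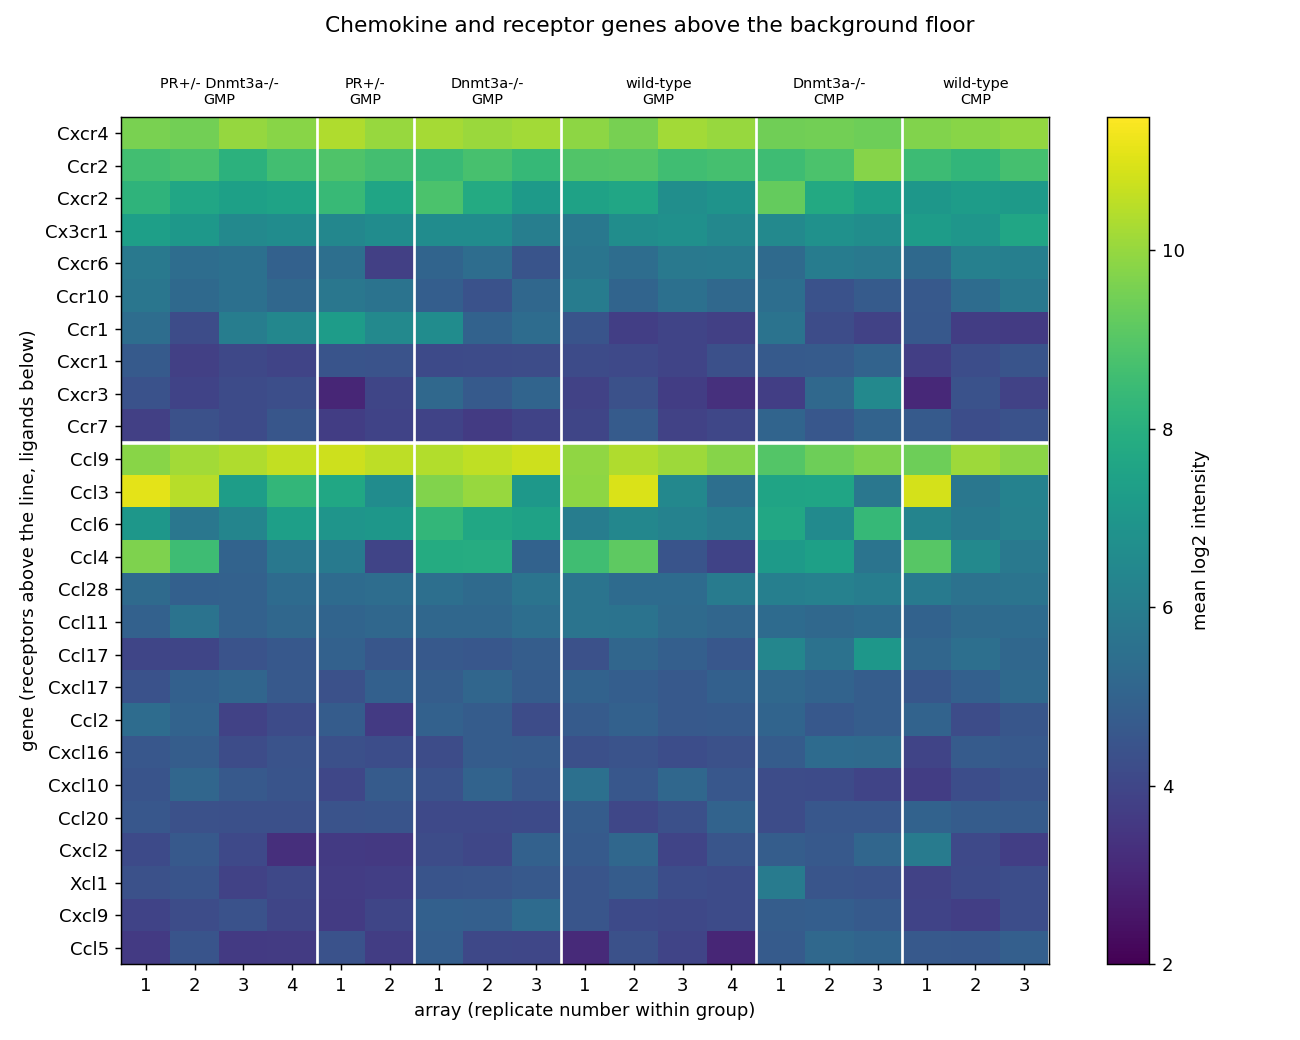
Mean log2 intensity (colour) of the 26 chemokine and receptor genes above the floor in at least 1 group, with arrays in columns by group and receptors above ligands. Cxcr4, Ccr2 and Ccl9 are bright on all 19 arrays, Ccl3 and Ccl4 change within groups, and Ccl17 is brightest in Dnmt3a-/- CMP; colours of different rows do not compare amounts of RNA.

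Among the receptors, Ccr1, which in the mouse binds Ccl3, Ccl5, Ccl6 and Ccl9, was the 1 member past the test in PR+/- against wild-type GMP. Its level was 7.24 and 6.47 in PR+/- GMP, against 4.48, 3.76, 3.95 and 3.80 in wild-type GMP. Every PR+/- array lay above every wild-type array, and the wild-type arrays lay under the floor. The difference was 2.85 ± 0.54 (SE, adjusted p = 0.0128, limma), and since wild type was under the floor Ccr1 was at least 4.11-fold higher. All 5 of its probe sets were higher without overlap. Of all genes, 3.07% were called in this comparison, against 1 of the 52 members. The arrays did not overlap for 9 members, against 28.5% of all genes. Leaving out PR+/- replicate 1 gave a difference of 2.47 with an adjusted p of 0.258, and leaving out each of the other 5 arrays kept the call.

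The mean of Ccr1 was also above the floor in the remaining GMP groups that carried an altered allele. Its level was 5.41, 4.21, 6.02 and 6.41 in PR+/- Dnmt3a-/- GMP and 6.60, 5.0 and 5.37 in Dnmt3a-/- GMP. The 3 Dnmt3a-/- GMP arrays all exceeded the 4 wild-type GMP arrays, while 1 PR+/- Dnmt3a-/- array, replicate 2, lay among the wild-type values. Neither difference from wild-type GMP passed: 1.51 ± 0.44 for PR+/- Dnmt3a-/- (adjusted p = 0.0893) and 1.66 ± 0.43 for Dnmt3a-/- (adjusted p = 0.0779). These comparisons and that of PR+/- share the wild-type GMP arrays. PR+/- Dnmt3a-/- GMP lay under PR+/- GMP without overlap, with a difference of -1.34 ± 0.57 (adjusted p = 0.624). The Dnmt3a-/- effect in PR+/- minus that in wild type was -3.0 ± 0.71 (unadjusted p = 0.00101, adjusted p = 0.165), so the test of the difference between backgrounds was not passed. In CMP, Ccr1 read 5.61, 4.20 and 3.89 in Dnmt3a-/- and 4.62, 3.74 and 3.64 in wild type, which overlapped. Averaged over CMP and GMP, the Dnmt3a-/- difference of Ccr1 was 1.11 ± 0.32 and just missed the threshold (adjusted p = 0.0571, limma).

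Cxcr4, the receptor for Cxcl12, was bright on every array and differed between cell types in the absence of Dnmt3a. Its level was 10.22, 10.07 and 10.19 in Dnmt3a-/- GMP, against 9.44, 9.48 and 9.40 in Dnmt3a-/- CMP. The groups did not overlap for the gene or for any of its 4 probe sets, and the difference of 0.72 ± 0.16 passed (adjusted p = 0.00968, limma), a 1.64-fold higher level in GMP. In wild type the levels were 9.88, 9.54, 10.18 and 10.02 in GMP, against 9.69, 9.82 and 9.96 in CMP. Here the cell types overlapped (0.08 ± 0.15, adjusted p = 0.846). The Dnmt3a-/- effect in GMP minus that in CMP was 0.64 ± 0.21 (adjusted p = 0.546), so the cell type difference was not shown to depend on Dnmt3a. With the fusion, Cxcr4 read 9.59, 9.46, 10.02 and 9.81 in PR+/- Dnmt3a-/- GMP, against 10.36 and 10.04 in PR+/- GMP, without overlap by a narrow margin (-0.48 ± 0.21, adjusted p = 0.624).

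Cxcr2, the receptor of mature neutrophils for Cxcl1, Cxcl2 and related ligands, spread widely within the Dnmt3a-/- groups. In CMP it was 9.24, 7.78 and 7.37 in Dnmt3a-/-, against 7.02, 7.27 and 7.18 in wild type. In GMP it was 8.82, 7.81 and 7.16 in Dnmt3a-/-, against 7.49, 7.62, 6.70 and 6.89 in wild type. The CMP groups did not overlap and the GMP groups did. Neither difference passed (0.98 ± 0.46, adjusted p = 0.379, in CMP and 0.76 ± 0.43, adjusted p = 0.354, in GMP). In the fusion groups Cxcr2 read 8.19, 7.62, 7.38 and 7.53 with PR+/- Dnmt3a-/- and 8.41 and 7.59 with PR+/-.

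Ccr1, Cxcr2 and the ligand Ccl6, described below, moved in part alongside a list of neutrophil maturation genes. Of its 13 genes 12 were measured, all 12 above the floor in at least 1 group. That list averaged 8.51 to 9.48 in PR+/- Dnmt3a-/- GMP, 9.70 to 9.82 in PR+/- GMP, 9.72 to 10.80 in Dnmt3a-/- GMP and 8.62 to 8.95 in wild-type GMP. In CMP it averaged 9.38 to 10.84 in Dnmt3a-/- and 8.51 to 8.79 in wild type. Replicate 1 was the highest Dnmt3a-/- array of each cell type for the list, for Ccr1 and for Cxcr2. Its CMP and GMP arrays carry adjacent title numbers, 22298 and 22299, and whether they are linked is not given. In Dnmt3a-/- against wild type, 5 of the 12 list genes rose in GMP and 4 in CMP, and none fell, where 1.33% and 1.28% of all genes were called. In PR+/- against wild-type GMP, where Ccr1 was called, 1 of the 12 rose, and in PR+/- Dnmt3a-/- against wild-type GMP none did. Ccl6 did not follow the list within Dnmt3a-/- CMP, since it was highest on replicate 3, where the list was lowest at 9.38. Within PR+/- Dnmt3a-/- GMP, Cxcr2 was highest on replicate 1, where the list was lowest at 8.51. Cxcr2 was lowest there on replicate 3, where the list was highest at 9.48. In CMP, Ccr1 overlapped between Dnmt3a-/- and wild type with both means under the floor, whereas the list did not overlap. A list of basophil and mast cell genes (10 of 11 measured, 8 above the floor in at least 1 group) also moved with Ccr1 in GMP. It averaged 7.49 to 8.32 in PR+/- Dnmt3a-/-, 7.92 to 7.97 in PR+/-, 7.50 to 8.24 in Dnmt3a-/- and 6.47 to 7.0 in wild type. Of its 10 genes, 5 rose in PR+/- Dnmt3a-/- and 1 fell, 5 rose in PR+/- and 3 in Dnmt3a-/-, each against wild-type GMP, where 3.52%, 3.07% and 1.33% of all genes were called. In CMP it averaged 5.57 to 6.37 in Dnmt3a-/- and 4.92 to 5.77 in wild type. The part of neutrophil, basophil or mast cell precursors in the results for these members was not tested.

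**Figure D2:**
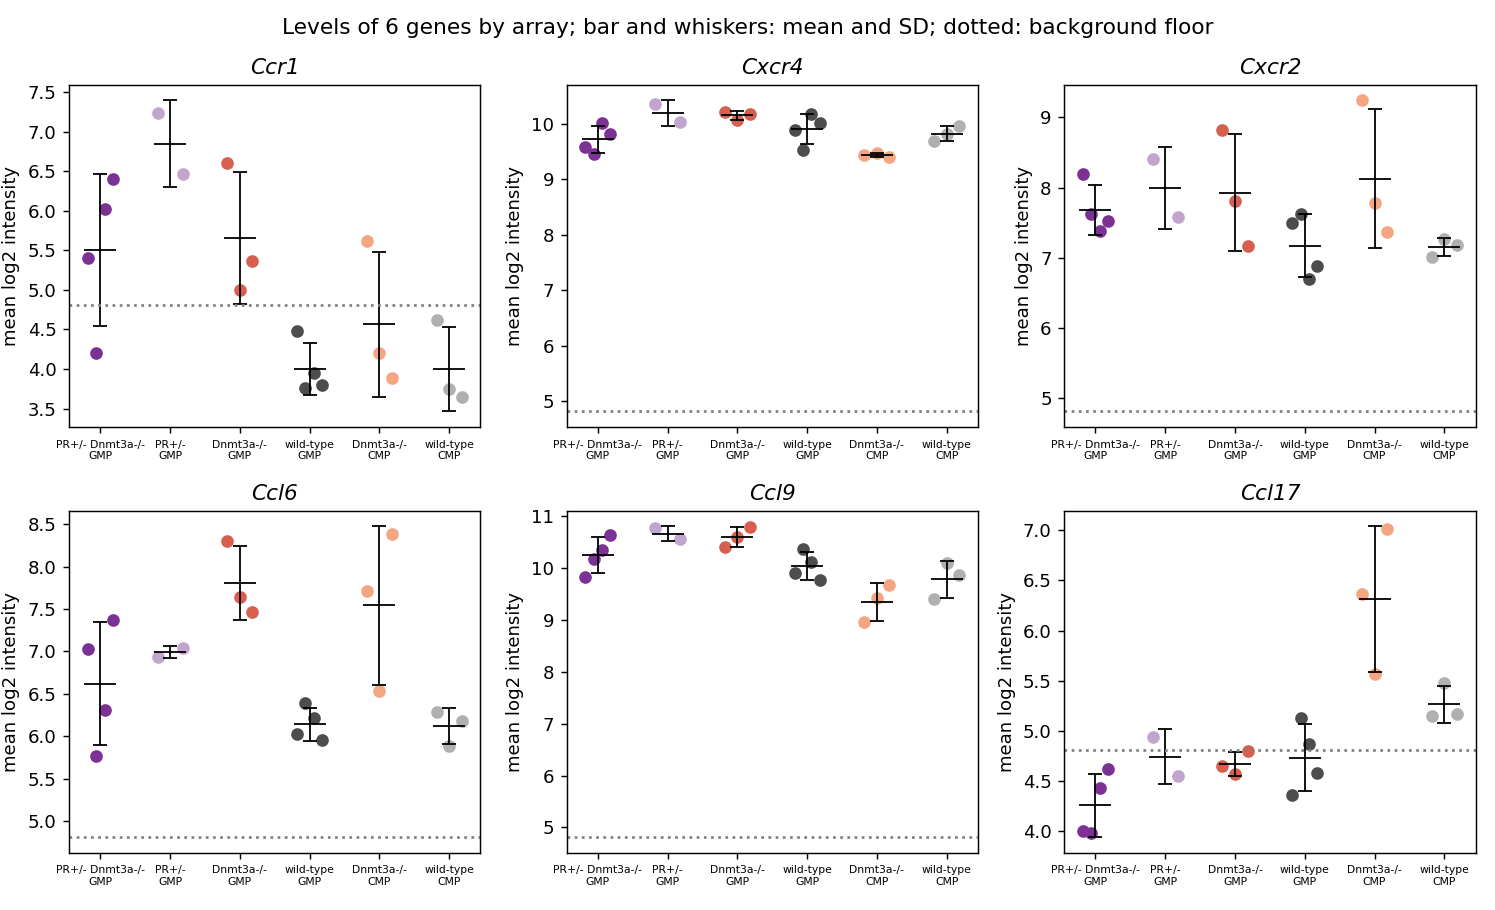
Mean log2 intensity of Ccr1, Cxcr4, Cxcr2, Ccl6, Ccl9 and Ccl17 on each of the 19 arrays (points), with group mean and SD (bars) and the floor of 4.81 (dotted). Ccr1 lies above the floor in both PR+/- GMP arrays and under it in all wild-type arrays, Ccl6 is higher in Dnmt3a-/- than in wild-type arrays of both cell types, and Ccl17 is highest in Dnmt3a-/- CMP.

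Ccr2, the receptor for Ccl2 on monocytes and their precursors, passed no test. It read 8.63, 8.79, 8.09 and 8.64 in PR+/- Dnmt3a-/- GMP, 8.89 and 8.65 in PR+/- GMP, 8.45, 8.75 and 8.36 in Dnmt3a-/- GMP and 8.94, 8.96, 8.59 and 8.69 in wild-type GMP. In CMP it read 8.55, 8.82 and 9.76 in Dnmt3a-/-, against 8.53, 8.24 and 8.70 in wild type. The groups of each cell type overlapped, and the CMP difference of 0.56 ± 0.26 (adjusted p = 0.365) leaned on Dnmt3a-/- replicate 3. Cx3cr1, the fractalkine receptor of the monocyte lineage, was 5.80, 6.67, 6.78 and 6.45 in wild-type GMP, against 7.27, 7.0 and 7.61 in wild-type CMP. All GMP arrays lay lower, but the difference of -0.87 ± 0.23 just missed the threshold (adjusted p = 0.0558). In Dnmt3a-/- it was 6.61, 6.62 and 6.07 in GMP and 6.46, 6.79 and 6.67 in CMP, and the CMP values lay under all wild-type CMP arrays (-0.65 ± 0.25, adjusted p = 0.265). With the fusion it was 7.36, 7.05, 6.49 and 6.61 in PR+/- Dnmt3a-/- and 6.41 and 6.62 in PR+/-.

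The remaining receptors above the floor lay close to it. Ccr7, which guides dendritic cells to lymph nodes, was 3.90, 3.65 and 3.91 in Dnmt3a-/- GMP, against 5.05, 4.56 and 5.01 in Dnmt3a-/- CMP (adjusted p = 0.00790, limma), at least 1.04-fold lower with GMP under the floor. Cxcr1, a receptor of neutrophils, was 4.14, 4.17 and 4.22 in Dnmt3a-/- GMP, against 4.69, 4.73 and 5.04 in Dnmt3a-/- CMP (adjusted p = 0.0339), at least 1.01-fold lower. For both receptors the arrays did not overlap at the level of the gene. Of the 3 probe sets of Ccr7, the brightest read 6.54, 6.37 and 5.54 in Dnmt3a-/- GMP, against 7.17, 6.28 and 7.04 in Dnmt3a-/- CMP, with overlap. Another read 3.32, 1.80 and 3.66 against 4.51, 4.05 and 3.23, also with overlap. The last, under the floor on all these arrays, read 1.85, 2.78 and 2.54 against 3.47, 3.35 and 4.78, without overlap. The Ccr7 call held in each of the 6 fits without 1 array, while the Cxcr1 call held in none of them, with adjusted p of up to 0.153 (without Dnmt3a-/- CMP replicate 3). In wild type Ccr7 was 3.99, 4.74, 3.88 and 4.01 in GMP and 4.70, 4.24 and 4.38 in CMP, and Cxcr1 was 4.18, 4.08, 3.95 and 4.33 in GMP and 3.78, 4.25 and 4.47 in CMP, all under the floor. The fusion groups were under the floor for both.

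Cxcr3, which receives Cxcl9 and Cxcl10, had a mean above the floor in the Dnmt3a-/- groups without the fusion and in no other, but no test of it was passed. It was 5.22, 4.68 and 5.06 in Dnmt3a-/- GMP, against 3.87, 4.37, 3.72 and 3.32 in wild-type GMP (1.17 ± 0.49, adjusted p = 0.229). In CMP it was 3.78, 5.20 and 6.48 in Dnmt3a-/-, against 3.10, 4.41 and 3.87 in wild type (1.36 ± 0.53, adjusted p = 0.267). The GMP groups did not overlap and the CMP groups did. Averaged over both cell types the difference of Cxcr3 was 1.26 ± 0.36 and just missed the threshold (adjusted p = 0.0571, limma). With the fusion Cxcr3 was 4.41, 3.92, 4.16 and 4.29 in PR+/- Dnmt3a-/- GMP and 3.02 and 4.0 in PR+/- GMP, all under the floor. Cxcr6, the receptor for Cxcl16, had values of 3.81 to 6.15 over all arrays, and Ccr10, a receptor for Ccl28, values of 4.39 to 5.99. Cxcr6 differed by -1.06 ± 0.39 in PR+/- against wild-type GMP (adjusted p = 0.173) and by -0.74 ± 0.27 in Dnmt3a-/- against wild-type GMP (adjusted p = 0.179). Ccr10 differed by 0.61 ± 0.23 in PR+/- Dnmt3a-/- against Dnmt3a-/- GMP (adjusted p = 0.249), and none of these passed.

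Among the ligands, Ccl6 was higher without Dnmt3a in both cell types. Ccl6 is a mouse CC chemokine of myeloid cells. In GMP its level was 8.30, 7.65 and 7.47 in Dnmt3a-/-, against 6.02, 6.39, 6.21 and 5.96 in wild type. In CMP it was 7.71, 6.53 and 8.38 in Dnmt3a-/-, against 6.29, 5.88 and 6.18 in wild type. No Dnmt3a-/- array of either cell type fell to the level of a wild-type array, and all 5 probe sets were higher on average in each. The GMP difference of 1.66 ± 0.34 passed (adjusted p = 0.0322, limma), a 3.16-fold higher level, and the CMP difference of 1.43 ± 0.36 did not (adjusted p = 0.0784). Averaged over both cell types the difference was 1.54 ± 0.25 (adjusted p = 0.00384), and the Dnmt3a-/- effect in GMP minus that in CMP was 0.24 ± 0.49 (adjusted p = 0.963).

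The averaged Ccl6 call held in each of the 13 fits without 1 array. The GMP call was kept in 1 of 7 such fits, with adjusted p up to 0.161 (without Dnmt3a-/- replicate 1), and the CMP difference passed without Dnmt3a-/- replicate 2 (1.93, adjusted p = 0.00567). With the Y-linked level, which largely follows genotype, as a covariate the averaged difference was 1.58 (adjusted p = 0.0968). With the fusion, Ccl6 was 7.03, 5.76, 6.31 and 7.37 in PR+/- Dnmt3a-/- GMP and 6.94 and 7.04 in PR+/- GMP. PR+/- lay above wild type without overlap (0.85 ± 0.36, adjusted p = 0.244), and PR+/- Dnmt3a-/- lay under Dnmt3a-/- without overlap (-1.19 ± 0.32, adjusted p = 0.105). The Dnmt3a-/- effect in PR+/- minus that in wild type was -2.03 ± 0.48 (unadjusted p = 0.00101, adjusted p = 0.165). No member passed that test of the difference, in which 0.0317% of all genes were called; 11 members had an unadjusted p under 0.05, against 14.0% of all genes.

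Cxcl9, an interferon-induced ligand of Cxcr3, stayed at or close to the floor in all groups. It was 4.93, 4.89 and 5.32 in Dnmt3a-/- GMP, against 4.51, 4.14, 4.08 and 4.19 in wild-type GMP (adjusted p = 0.0276, limma), at least 1.18-fold higher. In CMP it was 4.81, 4.83 and 4.68 in Dnmt3a-/-, against 3.89, 3.77 and 4.26 in wild type (adjusted p = 0.0391), with both means under the floor. It was 3.92, 4.19, 4.40 and 3.99 in PR+/- Dnmt3a-/- GMP, under all 3 Dnmt3a-/- GMP arrays (adjusted p = 0.0198, at least 1.18-fold lower), and 3.64 and 4.0 in PR+/- GMP. Of its 7 probe sets, 2 were higher without overlap in Dnmt3a-/- against wild-type GMP and 4 in CMP. The first read 6.35 to 7.02 in Dnmt3a-/- GMP and 1.96 to 5.02 in wild-type GMP. Fits without 1 array kept the GMP call in 2 of 7 and the CMP call in 1 of 6, with adjusted p up to 0.0826 (without Dnmt3a-/- GMP replicate 1) and 0.139 (without wild-type CMP replicate 2). The lower level in PR+/- Dnmt3a-/- was kept in 2 of 7, with adjusted p up to 0.0914 (without Dnmt3a-/- GMP replicate 3). Averaged over both cell types, Cxcl9 passed (adjusted p = 0.00195) and did so in each of the 13 fits without 1 array. It did not pass with the Y-linked level, which largely follows genotype, as a covariate (adjusted p = 0.118).

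Counted over the 52 members, the Dnmt3a-/- comparisons gave few calls. In CMP 1 member rose and none fell, where 1.28% of all genes were called and 0.919% rose. In GMP 2 rose and none fell, where 1.33% of all genes were called and 0.9% rose. In the average of both cell types 2 rose, Ccl6 and Cxcl9, and 1 fell, where 5.75% of all genes were called, 3.54% higher and 2.21% lower. The gene that fell was Ccl24, an eotaxin, at 3.67 to 4.31 in Dnmt3a-/- GMP and 4.33 to 4.93 in wild-type GMP, and at 3.62 to 3.68 in Dnmt3a-/- CMP and 4.05 to 4.30 in wild-type CMP (adjusted p = 0.0385). All its group means were under the floor. The call was lost in 12 of 21 alternatives, among them the fit with adjacent title numbers as pairs (adjusted p = 0.0548). These counts lie near the shares of all genes and show nothing particular to the members. The median absolute difference was 0.32 over the members and 0.18 over all genes in CMP, and 0.26 and 0.21 in GMP. Members had a median of 4 probe sets per gene, against 9 over all genes. Whether fewer probe sets or low levels widened the differences of the members was not tested. Arrays of Dnmt3a-/- and wild type did not overlap for 14 members in CMP, where the share was 23.1% of all genes, and for 11 in GMP, where it was 16.6%.

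**Figure D3:**
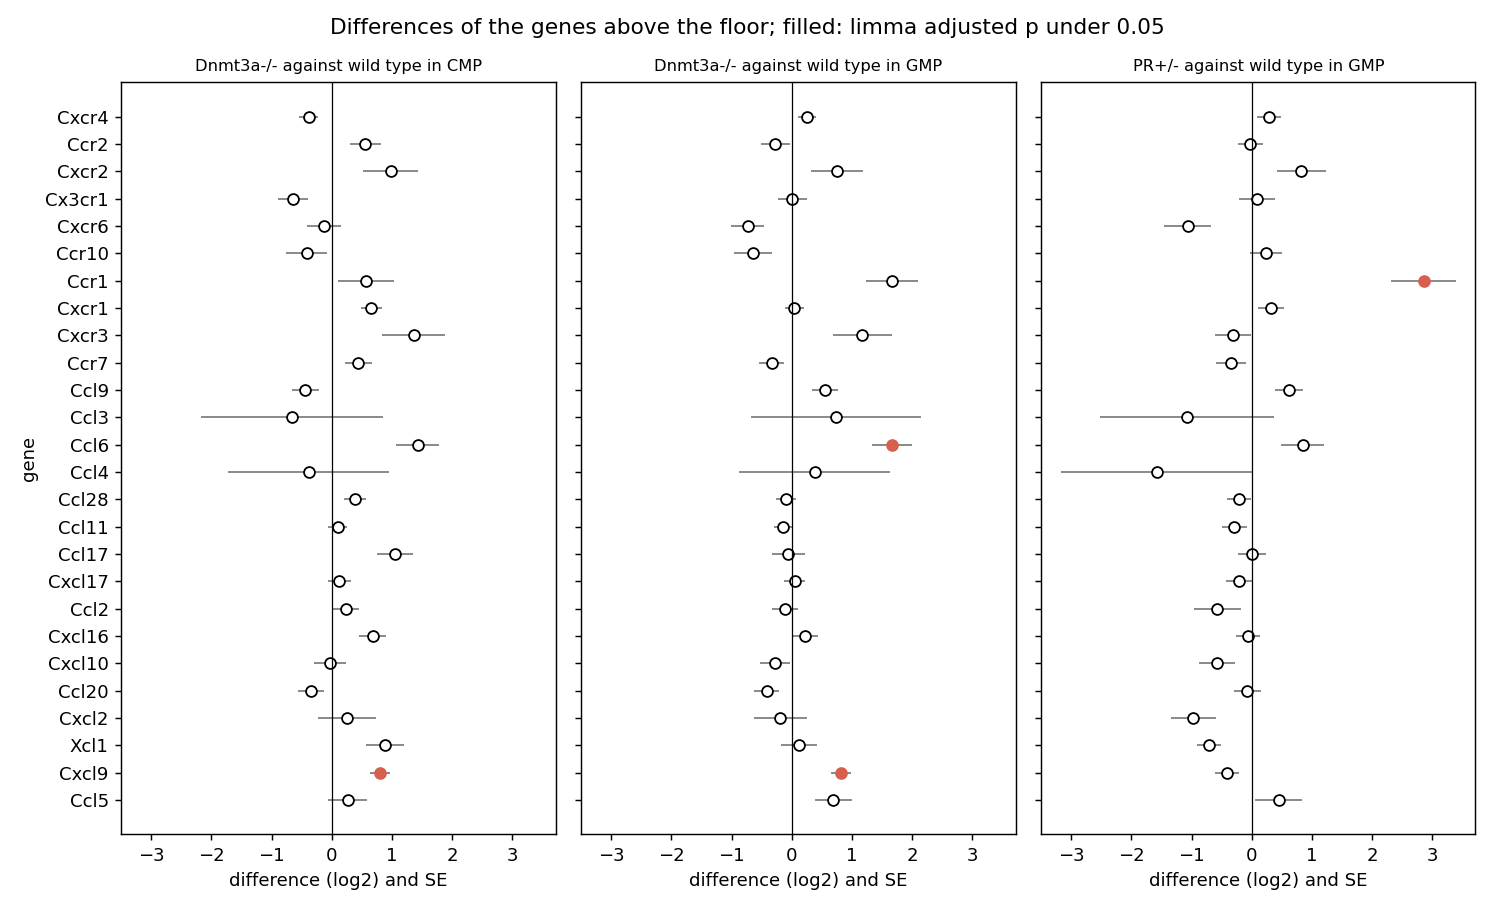
Differences in mean log2 intensity (points) with their SE (lines) for the 26 genes above the floor in at least 1 group, in Dnmt3a-/- against wild-type CMP, Dnmt3a-/- against wild-type GMP and PR+/- against wild-type GMP; filled points have a limma adjusted p under 0.05. Filled are Cxcl9 in the first panel, Ccl6 and Cxcl9 in the second and Ccr1 in the third, and Ccl3 and Ccl4 carry the widest errors.

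In GMP against CMP without Dnmt3a, 6 members were called, 2 higher and 4 lower, where 10.1% of all genes were called, 5.5% higher and 4.58% lower. The arrays did not overlap for 17 members, against 32.4% of all genes. Ccl9, a mouse CC chemokine of the myeloid lineage that binds Ccr1, was 10.41, 10.59 and 10.79 in Dnmt3a-/- GMP, against 8.96, 9.42 and 9.67 in Dnmt3a-/- CMP. The difference was 1.25 ± 0.23 (adjusted p = 0.00288, limma), a 2.37-fold higher level in GMP, and all 5 probe sets were higher without overlap. In wild type Ccl9 was 9.91, 10.38, 10.12 and 9.77 in GMP and 9.40, 10.10 and 9.86 in CMP, which overlapped (0.26 ± 0.21, adjusted p = 0.624). All Dnmt3a-/- GMP arrays exceeded the wild-type GMP arrays (0.55 ± 0.21, adjusted p = 0.197). PR+/- Dnmt3a-/- GMP read 9.82, 10.18, 10.36 and 10.64, and PR+/- GMP 10.77 and 10.56, which also exceeded wild type (0.62 ± 0.23, adjusted p = 0.171). Neither passed, nor did the Dnmt3a-/- effect in GMP minus that in CMP (0.99 ± 0.31, adjusted p = 0.492). Cxcr4 was the other gene higher in GMP.

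Lower in GMP than in CMP without Dnmt3a were Ccl17, Ccl28, Ccr7 and Cxcr1. Ccl17, a ligand of Ccr4 made by dendritic cells, was 4.65, 4.57 and 4.80 in Dnmt3a-/- GMP, against 6.37, 5.57 and 7.01 in Dnmt3a-/- CMP (adjusted p = 0.00259, limma). With GMP under the floor it was at least 2.83-fold lower, and the call held in each of the 6 fits without 1 array. Wild-type GMP read 4.36, 5.12, 4.87 and 4.58, and wild-type CMP 5.15, 5.47 and 5.17. In CMP all Dnmt3a-/- arrays lay above the wild-type arrays (1.05 ± 0.29, adjusted p = 0.111). Without Dnmt3a-/- CMP replicate 2 this difference was 1.42 and passed (adjusted p = 0.0208). In the fusion groups Ccl17 was 4.0, 3.98, 4.43 and 4.62 with PR+/- Dnmt3a-/- and 4.93 and 4.55 with PR+/-. Ccl28, a ligand of Ccr10 read by 1 probe set, was 5.48, 5.29 and 5.65 in Dnmt3a-/- GMP, against 6.09, 6.17 and 6.03 in Dnmt3a-/- CMP (-0.62 ± 0.18, adjusted p = 0.0422). Wild-type GMP read 5.64, 5.33, 5.33 and 5.97 and wild-type CMP 5.92, 5.57 and 5.64, which overlapped. The call in Dnmt3a-/- was kept in none of the fits without 1 array, with adjusted p up to 0.162 (without Dnmt3a-/- GMP replicate 2).

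In CMP, and between the Dnmt3a-/- cell types, Ccl17 and Ccr7 moved alongside a list of dendritic cell genes. All 13 of its genes were measured and were above the floor in at least 1 group. The list averaged 6.21 to 6.40 in Dnmt3a-/- GMP and 7.75 to 8.21 in Dnmt3a-/- CMP, against 5.18 to 5.65 in wild-type GMP and 6.48 to 6.97 in wild-type CMP. In the fusion groups it averaged 5.27 to 5.53 with PR+/- Dnmt3a-/- and 5.15 to 5.54 with PR+/-. Of its 13 genes, 12 fell in GMP against CMP without Dnmt3a, where 10.1% of all genes were called, and 6 rose in Dnmt3a-/- against wild-type CMP, where 1.28% were. A list of megakaryocyte and platelet genes (9 of 11 measured, all 9 above the floor in at least 1 group) was likewise highest in Dnmt3a-/- CMP. It averaged 5.94 to 6.59 in Dnmt3a-/- GMP and 7.54 to 7.98 in Dnmt3a-/- CMP, against 4.87 to 5.56 in wild-type GMP and 6.13 to 6.23 in wild-type CMP, with 7 of 9 genes lower and 6 of 9 higher in those 2 comparisons. Cxcl9 and Cxcr3 were likewise higher in Dnmt3a-/- than in wild-type group means of both cell types. In Dnmt3a-/- against wild-type GMP, 4 of the 13 dendritic cell genes rose, where 1.33% of all genes were called. There Ccl17 averaged 4.67 against 4.73 and Ccr7 3.82 against 4.16, all under the floor, so neither rose with the list. The part of dendritic cell or megakaryocyte precursors in these results was not tested.

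In GMP against CMP of wild type no member was called by limma, against 4.3% of all genes, and 7 members had an unadjusted p under 0.05, against 16.3% of all genes. The arrays did not overlap for 5 members, against 13.9% of all genes. The nearest beside Cx3cr1 was Ccl5, a ligand of Ccr1, at 3.14, 4.37, 3.94 and 3.03 in GMP, against 4.66, 4.63 and 4.89 in CMP (adjusted p = 0.0591), with both means under the floor. Cxcl10, an interferon-induced ligand of Cxcr3, was higher in GMP without passing, at 5.49, 4.58, 5.17 and 4.57 in GMP, against 3.74, 4.25 and 4.45 in CMP (0.81 ± 0.24, adjusted p = 0.0909). Both genes were without overlap between the cell types. The Dnmt3a-/- effect in GMP minus that in CMP gave no call among members and in 0.0% of all genes by limma, with 9 members at an unadjusted p under 0.05 and 6.86% of all genes.

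Ccl3 and Ccl4, inflammatory ligands of myeloid cells, varied more within groups than between them. Ccl3 was 11.10, 10.48, 7.28 and 8.27 in PR+/- Dnmt3a-/- GMP, 7.65 and 6.60 in PR+/- GMP, 9.72, 10.03 and 7.07 in Dnmt3a-/- GMP and 9.90, 10.97, 6.45 and 5.47 in wild-type GMP. In CMP it was 7.55, 7.57 and 5.75 in Dnmt3a-/-, against 10.88, 5.77 and 6.21 in wild type. The bright arrays of a group are largely those with high immediate early genes. In wild type, the arrays with high immediate early genes have title numbers 21986 to 21988 and the rest 22003 to 22012. What these numbers mark is not given, and the part of it in the levels of Ccl3 and Ccl4 was not tested. Ccl3 read 9.90 to 11.10 on the 5 arrays with high immediate early genes and 5.47 to 10.03 on the other 14, among which Dnmt3a-/- GMP 1 and 2 were the brightest. Ccl4 read 8.57 to 9.65 on those 5 arrays and 3.92 to 7.90 on the other 14, so these did not overlap. A list of NF-kB and inflammatory response genes averaged 6.06 to 6.45 on the 5 arrays, and 5.29 to 5.79 on the others.

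No group comparison of either ligand passed. In Dnmt3a-/- against wild type the differences were 0.74 ± 1.41 for Ccl3 and 0.38 ± 1.25 for Ccl4 in GMP, and -0.66 ± 1.51 and -0.38 ± 1.34 in CMP, with adjusted p from 0.799 to 0.940. In PR+/- Dnmt3a-/- against PR+/- GMP they were 2.16 ± 1.02 for Ccl3 and 2.32 ± 1.29 for Ccl4 (adjusted p = 0.630 and 0.654). The sign followed single arrays: without wild-type CMP replicate 1 the Ccl3 difference in CMP was 0.97. Without the 5 arrays the GMP differences were 2.98 for Ccl3 (adjusted p = 0.118) and 2.71 for Ccl4 (adjusted p = 0.141), each resting on wild-type GMP 3 and 4 and the 3 Dnmt3a-/- arrays. The differences in PR+/- Dnmt3a-/- against PR+/- then came to 0.65 and 0.47.

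**Figure D4:**
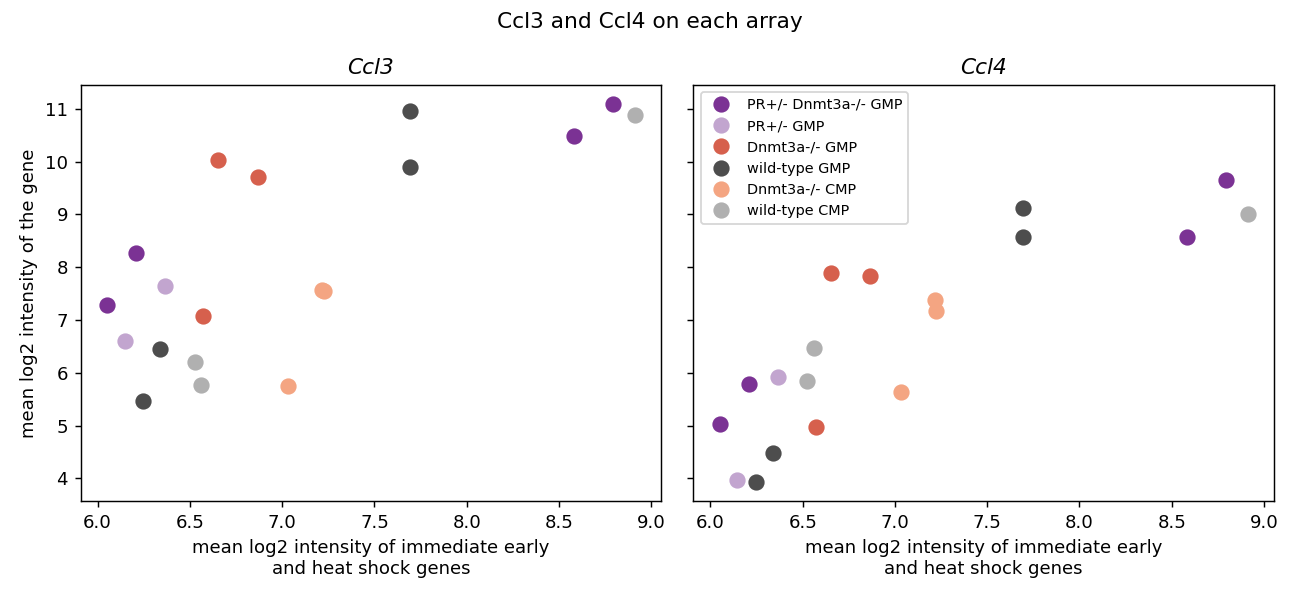
Mean log2 intensity of Ccl3 (left) and Ccl4 (right) on each of the 19 arrays against the mean log2 intensity of immediate early and heat shock genes, coloured by group. The 5 arrays above 7.69 on the horizontal axis, from 3 groups, hold the highest Ccl4 levels, and Dnmt3a-/- GMP 1 and 2 reach a similar Ccl3 level at 6.87 and 6.65.

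The fusion comparisons otherwise gave few calls among members. In PR+/- Dnmt3a-/- against PR+/- GMP limma called no member and 0.0% of all genes, with 6 members and 7.96% of all genes at an unadjusted p under 0.05. The arrays did not overlap for 8 members, against 20.6% of all genes. In PR+/- Dnmt3a-/- against Dnmt3a-/- GMP 1 member was called, Cxcl9, against 1.24% of all genes, and 11 did not overlap, against 14.8%. In PR+/- Dnmt3a-/- against wild-type GMP none was called, against 3.52% of all genes, with 5 members at an unadjusted p under 0.05 against 14.4% of all genes and 2 without overlap against 8.84%. The ligand Xcl1, whose receptor is Xcr1, was 3.69 and 3.75 in PR+/- GMP, under the 4.51, 4.75, 4.25 and 4.17 of wild-type GMP and under the floor in both (adjusted p = 0.0749). It was 4.34, 4.47, 3.89 and 4.04 in PR+/- Dnmt3a-/- GMP and 4.47, 4.49 and 4.66 in Dnmt3a-/- GMP. In CMP it was 5.95, 4.49 and 4.44 in Dnmt3a-/-, of which replicate 1 alone was above the floor, against 3.87, 4.12 and 4.23 in wild type (adjusted p = 0.229).

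Receptors and their ligands were not measured at the same standing. Cxcl12, the marrow ligand of Cxcr4, was 3.88 to 5.27 over all arrays and under the floor in every group mean, although 1 of its 9 probe sets read 8.24 to 9.03. Also under it was its scavenging receptor Ackr3, at 3.32 to 4.62. Of the Cxcr2 ligands, Cxcl1 was 2.71 to 4.86, Cxcl3 3.48 to 4.46 and Cxcl5 2.74 to 3.54, all under the floor in each group mean, although 1 of the 5 probe sets of Cxcl3 read 8.64 to 9.44 on all arrays. Cxcl2 reached a mean above the floor in Dnmt3a-/- CMP alone (4.79, 4.64 and 5.15), and its brightest array was wild-type CMP 1 at 5.96, the array with the highest immediate early level. Ccl2, the ligand of Ccr2, was 3.61 to 5.35 and above the floor in 1 group mean. Cx3cl1, the ligand of Cx3cr1, was 3.90 to 4.85, and the intestinal and thymic pair Ccl25 and Ccr9 was 3.69 to 5.07 and 3.45 to 4.88; these were under the floor in every group mean. Of the other ligands named by the size of a difference, Ccl11 was 4.97 to 5.64, Ccl20 4.02 to 5.01 and Cxcl16 3.94 to 5.31, with Cxcl16 at 4.77, 5.31 and 5.27 in Dnmt3a-/- CMP and 3.94, 4.75 and 4.64 in wild-type CMP (0.68 ± 0.22, adjusted p = 0.186).

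Downstream of the receptors, a list of 33 signalling genes had 28 measured, all above the floor in at least 1 group. In Dnmt3a-/- against wild-type GMP 1 rose and 1 fell, where 1.33% of all genes were called, with a list median of 0.15 against -0.07 over all genes. The gene that rose was Arrb2, a beta-arrestin that takes activated receptors out of signalling, with a mean of 8.72 in Dnmt3a-/- and 7.72 in wild type (1.0 ± 0.15, adjusted p = 0.00518, limma). Pik3r6, a regulatory subunit of the phosphoinositide kinase that acts below these receptors, fell to 5.87 in Dnmt3a-/-, against 6.59 in wild type (adjusted p = 0.0179). In PR+/- against wild-type GMP 3 rose and 1 fell, where 3.07% of all genes were called. Arrb2 was at 8.79 in PR+/- and 7.72 in wild type, the G protein subunit Gnai3 at 9.59 and 8.52, and Gng5 at 9.79 and 9.05. Pik3r6 was at 5.74 and 6.59. In PR+/- Dnmt3a-/- against wild-type GMP, where 3.52% of all genes were called, 2 rose, Arrb2 and Gnai3, and 2 fell: Pik3r6 at 5.42 and 6.59, and Rgs10, which shortens G protein signals, at 7.84 and 8.84. These comparisons share the wild-type GMP arrays. In Dnmt3a-/- against wild-type CMP none of the 28 was called, and none in PR+/- Dnmt3a-/- against PR+/- GMP.

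Between cell types without Dnmt3a, 3 of the 28 signalling genes were higher in GMP (Gnai3, Pik3r6 and Rgs19) and 2 lower (Rgs10 and Rgs18), where 5.5% of all genes were higher and 4.58% lower. Rgs18 averaged 7.95 in Dnmt3a-/- GMP and 9.06 in Dnmt3a-/- CMP (adjusted p = 0.0320, limma). In wild type, where 4.3% of all genes were called, Pik3r6 alone of the 28 was called, at 6.59 against 5.73 in CMP (adjusted p = 0.00216). Of the NF-kB and inflammatory response list, 18 of 19 genes were measured. Of these, 1 gene, Il6, rose in PR+/- Dnmt3a-/- and in PR+/- against wild-type GMP, where 3.52% and 3.07% of all genes were called. Il6 averaged 6.09 in PR+/- Dnmt3a-/- GMP and 6.15 in PR+/- GMP, against 3.82 in wild-type GMP. With wild type under the floor it was at least 2.42-fold higher in PR+/- Dnmt3a-/- (adjusted p = 0.00610) and at least 2.53-fold higher in PR+/- (adjusted p = 0.0247).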

How the data were processed

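The 19 arrays, Affymetrix mouse exon arrays of sorted progenitors, fall into 6 groups named from the labels. The authors deposited normalised intensity values, linear and between 1.34 and 16208, for each of 194293 probe sets. Per the submitters' processing notes, the tools were RMA and Partek and the build was mm9; no role or version is given. Array medians of 53.0 to 56.8 showed a common scale, so the intensities were used as deposited after taking log2. A gene's value was the mean over probe sets annotated to 1 symbol alone (179496 probe sets, 15781 genes). Symbols were updated through a reference table of GRCm38.p6 (2039 genes, among them 6 members, for example Darc to Ackr1).

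Group differences were estimated in R 4.3.3 by limma 3.58.1 (functions lmFit and eBayes; two-sided tests), and p-values were adjusted by the Benjamini-Hochberg method across the 15781 genes, with calls at 0.05. The comparisons without the fusion used 1 fit of 13 arrays, PR+/- Dnmt3a-/- against PR+/- used 6 arrays, and the other fusion comparisons used the 13 GMP arrays. The number of arrays limits the precision. "At least" folds are against the floor, as point estimates without sampling error.

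The members and the gene lists were chosen with earlier results of these data known. Genes were named by rule: members called in any comparison, the 10 largest differences per comparison among members above the floor, the 6 brightest members, and fixed ligand and receptor pairs. Alternatives left out arrays, changed the gene summary, normalisation, filter, weights or covariates, or fitted pairs. Both PR+/- groups have replicates 1 and 2, which no label describes as pairs, so the numbers were not used as such.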

Additional observations from a re-analysis of the deposited data

How the results depend on the processing

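For 26 of the differences above (every call, and further ones of Ccr1, Cxcr2, Cx3cr1, Ccl3, Ccl4, Ccl6, Ccl9 and Ccl17), 420 values under alternatives were compared with the reported ones: 334 kept their direction and their side of the threshold, 66 kept the direction and lost the call, 11 gained one and 9 changed sign. The number of members called in CMP without Dnmt3a against wild type, 1, became 0 without the 5 arrays with high immediate early genes, with the compared groups alone, with a filter on genes under the floor and with the Y-linked level as a covariate, 2 with the median of probe sets and 4 with array weights. In GMP it was 2, and became 1 with the compared groups alone or with the median, 7 with weights and 0 with the Y-linked covariate. For the average of both, 3 became 12 with weights and 0 with the Y-linked covariate. For GMP against CMP in wild type, 0 became 1 with the filter (Cx3cr1), weights (Ccl5) or the immediate early covariate (Ccr3); without Dnmt3a, 6 became 3 with the median and 15 with weights. The count of PR+/- against wild type was 1 and became 2 without the 5 arrays or with weights. That of PR+/- Dnmt3a-/- against Dnmt3a-/- was 1 and became 0 with the compared groups alone, the median, the filter or the Y-linked covariate, and 4 with weights; against wild type, 0 became 1 without the 5 arrays, with the filter or with weights, each time Ccr1. The difference of the Dnmt3a-/- effect between backgrounds, 0 members, became 1 without the 5 arrays (Ccr4). The filter tests fewer genes; the cause of the other shifts was not tested.

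Leaving out 1 array at a time gave 0 to 2 members in CMP, 0 to 2 in GMP, 2 to 4 in their average, 0 to 1 for GMP against CMP in wild type, 4 to 5 without Dnmt3a, 0 to 1 for PR+/- against wild type, and 0 to 1 for PR+/- Dnmt3a-/- against Dnmt3a-/- and against wild type; it gave 0 in every fit of the remaining comparisons. Signs turned for Ccl3 and Ccl4, which passed no test. Without 1 array, the Dnmt3a-/- difference of Ccl3 ranged from -1.59 (without wild-type replicate 2) to 0.97 (without wild-type replicate 1) in CMP and from -0.17 (without wild-type replicate 4) to 1.67 (without Dnmt3a-/- replicate 3) in GMP. That of Ccl4 in GMP ranged from -0.49 to 1.34 and was below 0 without Dnmt3a-/- replicates 1 or 2 (-0.09 and -0.12) and wild-type replicates 3 or 4 (-0.30 and -0.49). Ccl3 in CMP came to 0.97 without the 5 arrays, 0.61 with weights and 1.57 with the Y-linked covariate.

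With the replicate number as a block, PR+/- Dnmt3a-/- against PR+/- gave 0 members, as without it. Arrays sharing a number correlated in their deviations with r = 0.0774 and 0.0169. Treating adjacent title numbers as pairs (shared correlation 0.181) left the adjusted p of Ccl24 at 0.0548. Levels under the floor of 4.81, those of 26 members in all groups, limit what can be said of these genes.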
